A study of Mus musculus with 9 samples.

Results

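The transcripts of whole uteri on gestation day (GD) 3.5 were compared between mice that lack Mig-6 and Erbb2 and mice that lack Mig-6 alone. The comparison used 6 of the 9 arrays of the study, 3 titled Mig-6 d/d Erbb2 d/d (below, the double knockout) and 3 titled Mig-6 d/d, and all 45037 probe sets, groups of short probes that each read a transcript. In both groups the floxed alleles had been removed by a cre recombinase in 1 copy of the progesterone receptor gene Pgr, so the deletion is limited to cells that express Pgr, and both groups therefore share the loss of Mig-6 and the cre allele. The 3 control arrays came from mice with undeleted floxed alleles, of Mig-6 alone or of both genes. They do not enter the difference between the knockouts but count in the estimate of its error, and their values are given where they help. All mice were of a mixed C57BL/6 and 129P2/OlaHsd background and had been mated with C57BL/6 males. Their age is 8 to 12 weeks in the study's methods and 2 weeks in the sample labels. Each RNA was a pool of several mice of a genotype. The sources used here do not say whether separate pools were put on the arrays of 1 group, and the p-values may thus reflect the technical spread alone.

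ERBB2 is a receptor tyrosine kinase without a ligand of its own, which signals in pairs with EGFR, ERBB3 or ERBB4 once those bind a member of the EGF family. MIG-6, the product of the gene Errfi1, binds the kinase domains of these receptors and restrains them. Downstream, the kinase ERK switches on its own feedback inhibitors, whose transcripts are commonly read as a sign of its activity. In the mouse uterus before implantation, estrogen (E2) drives growth and secretion of the epithelium, and progesterone (P4) stops epithelial growth and prepares the stroma to receive the embryo.

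Values are intensities on a linear scale, and changes are differences between group means of log2 intensity, double knockout minus Mig-6 d/d. A call of increase or decrease needed a Benjamini-Hochberg adjusted p under 0.05 (limma) and more than a 1.5-fold change, and a gene was read at its brightest probe set. The arrays' median intensity was 7.87 to 8.24, and since these values carry no measure of background, changes that start or end near that level are less certain. Erbb2 read 46.5, 39.5 and 44.5 in Mig-6 d/d against 18.3, 9.88 and 18.4 in the double knockout, and it fell by 1.54 (SE 0.24, adjusted p = 0.00649, limma), so all 3 double-knockout arrays lay below all 3 Mig-6 d/d arrays. Errfi1, which should be low in both groups, read 76.05, 29.8 and 40.3 in the double knockout and 15.1, 15.96 and 255 in Mig-6 d/d, where control read 454, 564 and 286. The library with the label Mig-6 d/d 3 (replicate 3) thus went against its label at the deleted gene. The change of Errfi1 was 0.19 with all arrays and 1.54 without that library (adjusted p = 0.945 and 0.0621, limma), called in neither. Over all probe sets it correlated with Mig-6 d/d replicates 1 and 2 at 0.994 and 0.990, and with control and double-knockout arrays at 0.978 to 0.984. The sources used here do not place these probe sets inside or outside the exons that were removed. Results that rest on this library are given with and without it. Double-knockout replicate 3 also stood apart in secretory genes, where it lay between its group and Mig-6 d/d.

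About as many genes increased as decreased in the mice that lack Erbb2 besides Mig-6, but the decreases were larger. The floxed Erbb2 alleles of these mice came in by a further cross, on a mixed background. Whether a given change came from the loss of Erbb2 or from other inherited differences between the groups was not tested. A total of 678 genes were increased, 3.73% of 18193, and 682 were decreased, 3.75%. Among probe sets, 1074 were increased (2.38%) and 1238 decreased (2.75%). More than 2-fold changes were seen in 127 increased and 392 decreased genes, and more than 4-fold changes in 10 and 88. The largest fold increase was 32.8 and the largest fold decrease 21.8. The arrays of both groups lay apart without overlap, with the double knockout higher in 18.6% and lower in 14.2% of all genes. Of all 18193 genes, 10221 were higher and 7972 lower in the double knockout, whether called or not. The median log2 fold change of all genes was 0.03. Without the library with the label Mig-6 d/d 3, 453 genes were increased and 391 decreased, of which 400 and 368 were called with it too. In all, 235 increased and 250 decreased genes kept the call whichever of the 9 arrays was left out, and genes of this kind are described as called whichever array was left out.

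**Figure D1:**
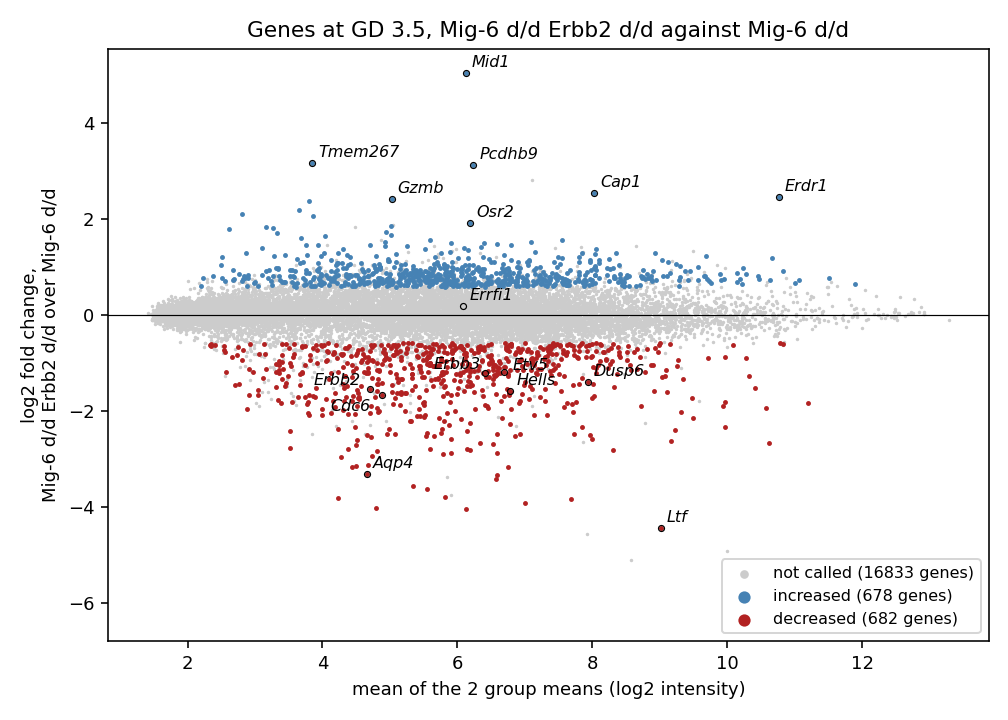
Each point is 1 of 18193 genes, with the mean of the Mig-6 d/d and double-knockout group means (log2 intensity) on the horizontal axis and the log2 fold change, double knockout over Mig-6 d/d, on the vertical axis. Blue points (678) were increased, red points (682) decreased and grey points not called; decreases reached further from 0 than increases, apart from Mid1 at 5.03.

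Among the receptors and their signal carriers, the receptor genes Erbb2 and Erbb3 and the ERBB antagonist gene Lrig1 decreased, and the adaptor gene Shc1 increased, so 1 of 13 measured members was increased and 3 decreased, where 3.73% of all genes were increased and 3.75% decreased. Shc1 and Erbb3 each lost the call without 7 of the 9 arrays. Without double-knockout replicate 1 or 2, control replicate 1, Mig-6 d/d replicate 1 or the library with the label Mig-6 d/d 3, Erbb2 was the 1 decreased member. Erbb3, the partner of ERBB2 that lacks a strong kinase of its own, read 138, 109.8 and 139 in Mig-6 d/d against 47.6, 50.4 and 71.3 in the double knockout. It fell by 1.21 (SE 0.31, adjusted p = 0.0484, limma), near the threshold, and was not called without double-knockout replicate 1, 2 or 3, Mig-6 d/d replicate 1 or 2, the library with the label Mig-6 d/d 3 or control replicate 1 (adjusted p up to 0.154, limma). Lrig1, which encodes a membrane protein that promotes the breakdown of ERBB receptors, read 358, 150.02 and 296 in Mig-6 d/d against 66.4, 64.2 and 146 in the double knockout and fell by 1.56 (adjusted p = 0.0455, limma), a call lost without double-knockout replicate 1 or 2, Mig-6 d/d replicate 1, the library with the label Mig-6 d/d 3 or control replicate 1 (up to 0.157). Its change was -1.95 to -1.30 with any 1 array left out. Egfr, the founding receptor of the family, read 119, 107 and 138 in Mig-6 d/d against 192, 244 and 175 in the double knockout. The arrays did not overlap, but the change of 0.74 was not called (adjusted p = 0.103, limma), and 1 of 7 Egfr probe sets was increased. Erbb4 stayed at intensities of 2.77 to 3.31 in all 6 arrays, below the arrays' median, where presence of the transcript cannot be judged.

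Of 10 genes of EGF-family ligands, 2 were decreased and none increased. The ligand gene Tgfa read 39.5, 35.9 and 40.96 in Mig-6 d/d against 27.9, 25.6 and 22.1 in the double knockout and fell by 0.63 (SE 0.14, adjusted p = 0.0296, limma). Btc, which encodes betacellulin, fell by 0.73 (adjusted p = 0.0466, limma) from levels near the arrays' median. Both calls were lost without most single arrays, Tgfa without double-knockout replicate 1, 2 or 3, Mig-6 d/d replicate 1 or the library with the label Mig-6 d/d 3 (adjusted p up to 0.0974, limma) and Btc without 8 of the 9 arrays (up to 0.157). Hbegf, a ligand gene of the epithelium facing the embryo, read 34.6, 53.5 and 42.4 in Mig-6 d/d against 21.5, 22.5 and 26.9 in the double knockout, a change of -0.86 that was not called (adjusted p = 0.0773, limma).

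Some targets of ERK decreased, in arrays where 16 of 19 markers of epithelium were decreased too (median -1.35, described below). The part of epithelial content in the changes of ERBB, ligand and ERK feedback genes was not tested. Of 14 measured genes of ERK feedback, 12 were lower in the double knockout, 3 were decreased (5 without control replicate 3) and none was increased, with a median of -0.38. Dusp6, which encodes the phosphatase that inactivates ERK in the cytoplasm, read 354, 353 and 484 in Mig-6 d/d, 139.5, 134 and 177 for the double knockout and 150.2, 118 and 168 in control. Dusp6 fell by 1.40 (SE 0.17, adjusted p = 0.00297, limma). Etv5, an ETS transcription factor gene induced by ERK, read 129, 177 and 165 in Mig-6 d/d against 71.2, 72.5 and 61.4 in the double knockout, and fell by 1.19 (SE 0.14, adjusted p = 0.00228, limma). Ier3, an early response gene, read 506, 535 and 662 in Mig-6 d/d against 278, 303 and 344 in the double knockout and fell by 0.88 (SE 0.13, adjusted p = 0.00523, limma). In each of these 3 genes the groups did not overlap, and each was called whichever array was left out. Without the library with the label Mig-6 d/d 3 their changes were -1.25, -1.15 and -0.76. Their changes in Mig-6 d/d against control, which share the Mig-6 d/d arrays, were 1.45, 0.85 and 1.03 (adjusted p = 0.00764, 0.0148 and 0.00819, limma), and those in the double knockout against control were 0.05, -0.34 and 0.16 (adjusted p = 0.979, 0.584 and 0.864, limma). Of the 15 listed immediate early genes, the first transcripts that growth signals switch on, none was called by limma in either direction. Ier3 is not in this list. At an unadjusted p under 0.05, 3 members were higher, where 9090 of all 45037 probe sets passed that limit in either direction. Members were read at their brightest probe set and in 1 direction, so these figures are not like for like. Dusp1, which encodes a phosphatase of MAP kinases in the nucleus, came nearest and read 87.05, 80.8 and 85.3 in Mig-6 d/d against 97.7, 116 and 122 in the double knockout (change 0.40, adjusted p = 0.0595, limma).

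**Figure D2:**
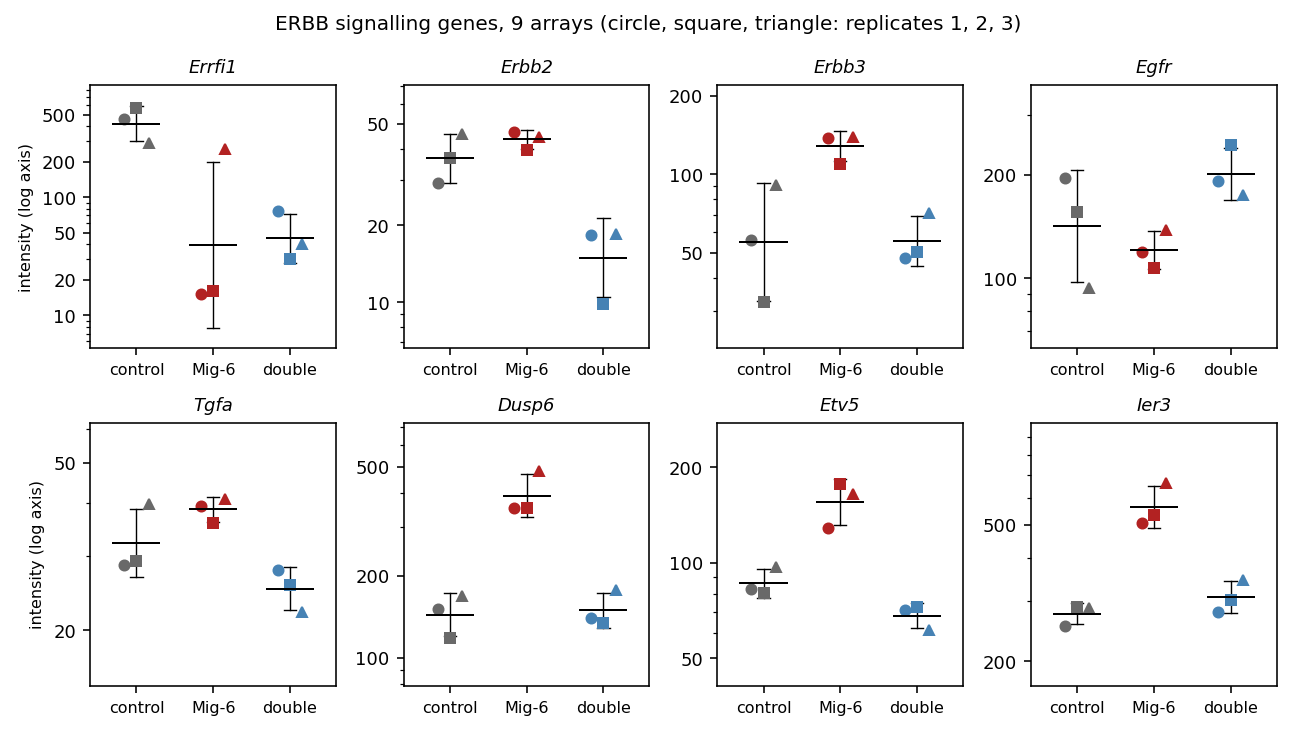
Intensity (log axis) of 8 genes of ERBB signalling in the 3 control, 3 Mig-6 d/d (Mig-6) and 3 double-knockout (double) arrays; bars are the mean and SD of the log2 values (n = 3). Dusp6, Etv5 and Ier3 were higher in all 3 Mig-6 d/d arrays than in any other array, and Errfi1 in the library with the label Mig-6 d/d 3 (triangle, 255) lay near control.

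Among the 12 largest increases were 3 neighbours on the X chromosome and 2 on chromosome 7. Mid1, which encodes a ubiquitin ligase bound to microtubules, read 8.90, 19.3 and 9.35 in Mig-6 d/d, 8.04, 8.62 and 8.36 in control and 369.6, 320.4 and 478 in the double knockout. Mid1 increased by 5.03 (SE 0.26, adjusted p = 2.11e-05, limma), at 1 of its 3 probe sets, while the others read at most 5.71 in the 6 arrays. Tmem267, a membrane protein gene, read 4.32, 5.88 and 4.34 in Mig-6 d/d against 40.4, 42.2 and 45.7 in the double knockout (increase 3.16, adjusted p = 5.53e-06, limma). Erdr1, a gene of the end of the X chromosome, read 798, 723 and 700.3 in Mig-6 d/d, 688, 856 and 989 in control and 4188, 3653 and 4417 in the double knockout. It increased by 2.46 (SE 0.14, adjusted p = 2.97e-05, limma), read by a probe set whose probes can bind related transcripts. Cap1, which encodes a regulator of actin turnover, read 109, 116 and 102 in Mig-6 d/d against 670.1, 587 and 629.9 in the double knockout and increased by 2.53 (adjusted p = 0.00335, limma), at both of its probe sets. Control replicate 1 of Cap1 stood apart from the other controls, at 346, 117 and 131.

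Pcdhb9, a cell adhesion gene of the protocadherin cluster, read 13.9, 18.9 and 49.2 in Mig-6 d/d, with its highest value in the library with the label Mig-6 d/d 3, and 264, 166 and 195 in the double knockout (increase 3.12, adjusted p = 0.00359, limma). Gzmb, the granzyme gene of natural killer cells, read 13.1, 11.5 and 16.9 in Mig-6 d/d against 109.99, 52.4 and 67.95 in the double knockout. Trim34a, of the TRIM family of antiviral genes, read 5.59, 5.68 and 6.29 in Mig-6 d/d, below the arrays' median, and 20.4, 27.9 and 32.4 in the double knockout. Its relative Trim12a read 4.33, 2.87 and 2.99 and 15.98, 10.9 and 16.4. They increased by 2.18 and 2.09 (adjusted p = 0.000168 and 0.000804, limma), Trim34a at 1 of its 2 probe sets, the other being decreased. G530011O06Rik, a non-coding transcript, increased by 2.37 (adjusted p = 0.00355, limma). These 9 genes were called whichever array was left out. Taf15, an RNA-binding protein gene, the transcription factor gene Osr2 and the retinoic acid carrier gene Crabp1 completed the 12 largest increases, at 2.06, 1.92 and 1.86. Taf15 was not called without double-knockout replicate 2 or 3 or the library with the label Mig-6 d/d 3 (adjusted p up to 0.0754, limma), Osr2 without double-knockout replicate 1 or 2, Mig-6 d/d replicate 2 or the library with the label Mig-6 d/d 3 (up to 0.0933) and Crabp1 without double-knockout replicate 2 or 3, Mig-6 d/d replicate 1 or the library with the label Mig-6 d/d 3 (up to 0.117).

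**Figure D3:**
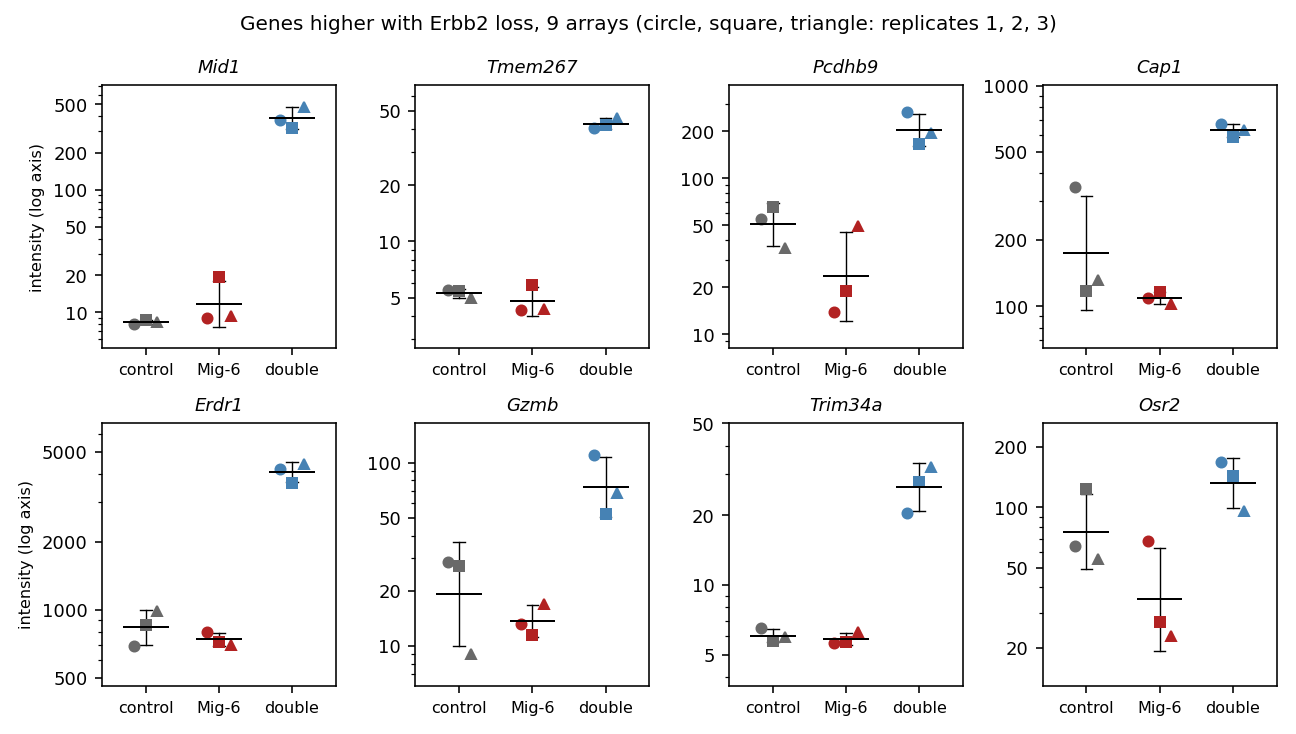
Intensity (log axis) of 8 of the genes that increased most, in the 3 control, 3 Mig-6 d/d (Mig-6) and 3 double-knockout (double) arrays; bars are the mean and SD of the log2 values (n = 3). In Mid1, Tmem267, Erdr1 and Trim34a every double-knockout array lay above every control and Mig-6 d/d array, and the controls of Cap1, Gzmb and Osr2 were spread (117 to 346 in Cap1).

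Several of these genes neighbour each other, as read from the order of genes in RefSeq (assembly GRCm38.p6) and looked at after their values had been seen. Mid1, G530011O06Rik and Erdr1 lie together at the end of the X chromosome. Trim34a and Trim12a lie beside Trim30d and Trim12c in the TRIM cluster of chromosome 7, where Trim30d read 4.79, 4.53 and 4.64 in Mig-6 d/d against 10.3, 9.90 and 14.1 in the double knockout (increase 1.28, adjusted p = 0.00199, limma). Trim12c went the other way and read 143, 101 and 164 in Mig-6 d/d against 54.8, 60.6 and 73.6 in the double knockout. Trim12c fell by 1.09 (adjusted p = 0.00738, limma). These are near relatives whose probes can share sequence, so how the signal divides between them is uncertain. Of the 20 measured genes nearest to Tmem267 on chromosome 13, 2 were increased (4833420G17Rik and D13Ertd608e) and 2 decreased (the chemokine gene Ccl28 and Hmgcs1). 4833420G17Rik read 77.8, 78.7 and 84.7 in Mig-6 d/d against 202, 247 and 246 in the double knockout, an increase of 1.52 (adjusted p = 0.00229, limma). Of the 20 measured genes nearest to Erbb2 on chromosome 11, 4 were decreased (Stard3, Grb7, Csf3 and Med24) and 1 was increased (Thra). Med24, a subunit of the mediator of transcription, read 222, 132 and 230.5 in Mig-6 d/d, 59.8, 51.00 and 73.01 for the double knockout and 50.7, 67.5 and 74.9 in control. Med24 fell by 1.64 (adjusted p = 0.00474, limma). Grb7, an adaptor gene that is often amplified together with ERBB2 in tumors, fell by 1.39 (adjusted p = 0.0184, limma), a call lost without double-knockout replicate 1 or 2, Mig-6 d/d replicate 1 or the library with the label Mig-6 d/d 3. Of the 20 nearest to Cap1, 1 was increased (Ppt1) and 1 decreased (Mycl). Beside these counts of neighbours, 3.73% of all genes were increased and 3.75% decreased. The counts at Cap1 were near those shares. Whether changes of genes that lie together came from the loss of Erbb2 or from inherited stretches of the mixed background was not tested.

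Of the 12 largest decreases, Aqp4 had the most even arrays. This water channel gene read 76.3, 81.04 and 82.8 in Mig-6 d/d, 8.34, 7.77 and 7.98 for the double knockout and 8.74, 7.03 and 7.85 in control. Aqp4 fell by 3.32 (SE 0.10, adjusted p = 6.24e-07, limma) to the arrays' median. Ltf, the lactoferrin gene, had uneven arrays, with 43.99, 33.3 and 369 in the double knockout against 1797, 1477 and 2124 in Mig-6 d/d. The 2210407C18Rik gene, whose transcript is abundant in secretory epithelia, read 117, 18.5 and 86.2 in Mig-6 d/d against 6.71, 6.16 and 6.31 in the double knockout and fell by 3.16 (adjusted p = 0.00888, limma), although Mig-6 d/d replicate 2 stood apart from its group. Hk2, Car2 and Ctse were outside the 12 largest decreases. Hk2, which encodes the hexokinase that commits glucose to glycolysis, read 143, 135 and 179.8 in Mig-6 d/d against 59.05, 52.1 and 55.2 in the double knockout, and fell by 1.45 (SE 0.14, adjusted p = 0.000986, limma). Car2, the carbonic anhydrase gene of fluid-transporting epithelia, fell by 2.34 from 2216 ± 583 to 454 ± 197 (SD, n = 3; adjusted p = 0.00355, limma). Ctse, the gene of the protease cathepsin E, read 122, 182 and 181 in Mig-6 d/d against 16.9, 30.2 and 19.9 in the double knockout, which lay below all control arrays at 90.9, 65.2 and 60.96. Ctse fell by 2.87 (adjusted p = 0.000536, limma), and its change against control was -1.72 (adjusted p = 0.0160, limma). Aqp4, 2210407C18Rik, Hk2, Car2 and Ctse were called whichever array was left out.

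Of 19 markers of epithelium, 16 were decreased and none was increased, with a median of -1.35. Their summed intensity was 9653 to 14106 in the Mig-6 d/d arrays, 3402 to 4820 in the double knockout and 3775 to 6670 in control. Cdh1, the E-cadherin gene that joins epithelial cells, read 833, 726 and 949.5 in Mig-6 d/d against 269, 384 and 394 in the double knockout and fell by 1.27 (SE 0.19, adjusted p = 0.00550, limma). The keratin gene Krt19 read 1587, 958 and 1589 in Mig-6 d/d against 212, 224 and 351 in the double knockout and fell by 2.39 (adjusted p = 0.00955, limma). The epithelial adhesion gene Epcam fell by 2.15 (adjusted p = 0.0123, limma), a call lost without double-knockout replicate 1 (adjusted p up to 0.0536, limma), and its change was -2.42 to -1.91 with any 1 array left out. Cdh1 and Krt19 were called whichever array was left out, and the count of decreased epithelial markers was 9 without double-knockout replicate 1 and 11 to 17 without any other array. Control arrays overlapped with the double knockout in the summed level of these markers, and no marker of epithelium, stroma or smooth muscle was at or below the median of all values in all 6 arrays. In whole uteri, fewer cells of a type and less RNA per cell cannot be told apart.

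All 18 markers of stroma were higher in the double knockout, and 8 were increased, with a median of 0.67. Their summed intensity was 8688 to 9343 in Mig-6 d/d, 12215 to 12912 for the double knockout and 11335 to 13646 in control. Osr1, a transcription factor gene of embryonic and adult mesenchyme, read 44.5, 49.1 and 32.3 in Mig-6 d/d against 133, 112 and 86.8 in the double knockout and increased by 1.40 (SE 0.18, adjusted p = 0.00344, limma). Zeb1, a repressor of epithelial genes, read 163, 165 and 178 in Mig-6 d/d against 305, 316 and 274 in the double knockout and increased by 0.82 (adjusted p = 0.00550, limma). The broad stromal markers Vim, Pdgfra and Pdgfrb had changes of 0.47, 0.76 and 0.17 and were not called (adjusted p = 0.0612, 0.119 and 0.582, limma).

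Of 20 smooth muscle genes all were higher and 10 were increased, with a median of 0.73, and their summed intensity was 17967 to 24888 in Mig-6 d/d against 32521 to 39098 in the double knockout (27613 to 34685 in control). Actg2, the actin gene of visceral muscle, read 1199.7, 854 and 1189 in Mig-6 d/d against 2672, 2031 and 2568 in the double knockout and increased by 1.17 (SE 0.17, adjusted p = 0.00550, limma). Hspb6, a heat shock protein gene of muscle, increased by 1.21 (adjusted p = 0.0101, limma), while the smooth muscle actin gene Acta2 had a change of 0.37 that was not called (adjusted p = 0.0739, limma). Of 22 endothelial genes 11 were increased and none decreased, with a median of 0.64 and a summed intensity of 1662 to 2101 in Mig-6 d/d against 2746 to 3199 in the double knockout (2641 to 3033 in control). The lymphatic regulator Prox1 was at or below the median of all values in all 6 arrays. Lyve1, a receptor gene of lymphatic endothelium, read 48.2, 50.7 and 35.1 in Mig-6 d/d against 117, 104 and 118 in the double knockout and increased by 1.35 (SE 0.19, adjusted p = 0.00499, limma), and Kdr, the VEGF receptor gene, increased by 0.68 (adjusted p = 0.00738, limma). Genes of the extracellular matrix followed, with 26 of 28 higher and 8 increased, at a median of 0.61. Among these, Timp2, an inhibitor of matrix proteases, read 569, 437 and 605 in Mig-6 d/d against 1293, 899 and 1006 in the double knockout (increase 0.99, adjusted p = 0.00967, limma), and the collagen gene Col5a2 increased by 0.85 (adjusted p = 0.00810, limma). Osr1, Zeb1, Actg2, Hspb6, Lyve1, Kdr, Timp2 and Col5a2 were called whichever array was left out. The counts of increased members were lower without double-knockout replicate 1, at 4 (stroma), 3 (smooth muscle), 5 (endothelium) and 3 (matrix). They were also lower by more than 1.5-fold without double-knockout replicate 2 or 3 or Mig-6 d/d replicate 1 or 2 (5 or 6 for smooth muscle), without double-knockout replicate 2 or Mig-6 d/d replicate 1 or 2 (4 or 5 for endothelium), and without double-knockout replicate 3, Mig-6 d/d replicate 2 or the library with the label Mig-6 d/d 3 (4 or 5 for the matrix).

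**Figure D4:**
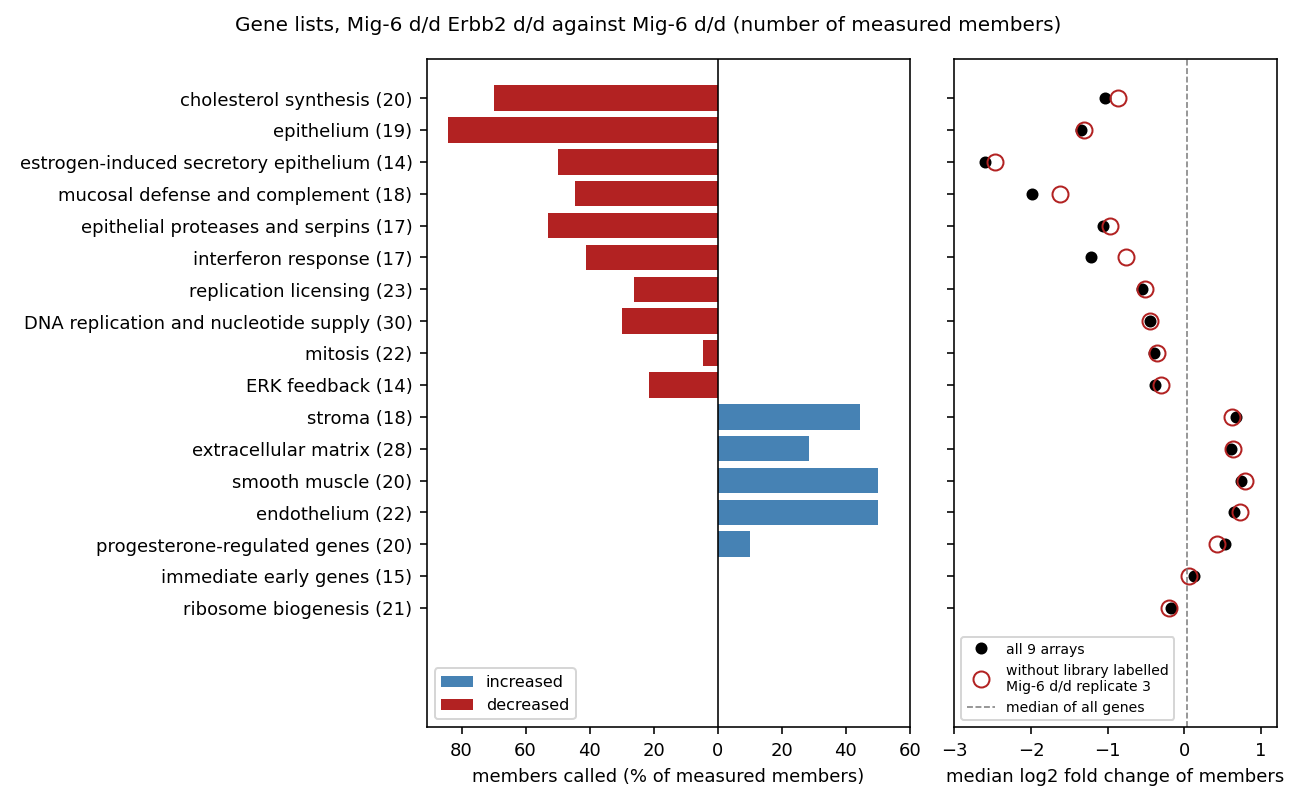
Left, the share of the measured members of each of 17 gene lists that were decreased (red, to the left) or increased (blue, to the right), in percent; right, the median log2 fold change of the members with all 9 arrays (black) and without the library with the label Mig-6 d/d 3 (open circles), beside the median of all genes (0.03, dashed). The share of all genes called was 3.73% increased and 3.75% decreased, and lists of epithelium, its secretions and cholesterol synthesis lay to the left and those of stroma, muscle and endothelium to the right.

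In the same arrays as the gene groups that follow, 16 of 19 markers of epithelium were decreased, and 8 of 18, 10 of 20 and 11 of 22 of those of stroma, smooth muscle and endothelium were increased. Their part in those results was not tested. Of 14 secretory genes of the E2-stimulated epithelium, 7 were decreased and none increased, at a median of -2.60. Sprr2f, a small proline-rich protein gene that E2 induces, read 3475, 2836 and 3801 in Mig-6 d/d against 336, 271 and 1616 in the double knockout. It fell by 2.66 (SE 0.61, adjusted p = 0.0293, limma), and was not called without double-knockout replicate 1 or 2, Mig-6 d/d replicate 1 or 2 or the library with the label Mig-6 d/d 3 (adjusted p up to 0.111, limma). Clca1, which encodes a secreted regulator of chloride channels and mucus, had the widest spread, with 2119, 551 and 1046 in Mig-6 d/d against 8.68, 10.3 and 333 in the double knockout. Its change of -5.11 was not called (adjusted p = 0.0539, limma), nor was that of the mucin gene Muc1 at -1.90 (adjusted p = 0.139, limma), and in both genes double-knockout replicate 3 was the highest of its group. The count of 7 was 12 without double-knockout replicate 3 and 2 to 4 without double-knockout replicate 1 or 2, Mig-6 d/d replicate 1 or the library with the label Mig-6 d/d 3.

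Mucosal defense genes decreased in 8 of 18 cases, none increased, and their median was -1.99. Cfb, a factor of the alternative complement pathway, read 225, 136 and 313 in Mig-6 d/d against 30.4, 18.1 and 65.3 in the double knockout and fell by 2.69 (SE 0.43, adjusted p = 0.00766, limma). Of 17 genes of epithelial proteases and serpins, 9 were decreased and none increased. Their summed intensity overlapped between the groups (2108 to 2410 in Mig-6 d/d against 1332 to 2776 in the double knockout, highest in replicate 3). Prss22, a serine protease gene, read 50.2, 55.3 and 119 in Mig-6 d/d, 7.82, 6.75 and 17.2 for the double knockout and 9.19, 8.40 and 10.8 in control, and fell by 2.84 (SE 0.38, adjusted p = 0.00380, limma). Cfb and Prss22 were called whichever array was left out. Without double-knockout replicate 1 or 2, Mig-6 d/d replicate 1 or the library with the label Mig-6 d/d 3, the counts were 3 to 5 for defense and 3 or 4 for proteases. Of 9 uterine gland genes 2 were decreased, and 1 without Mig-6 d/d replicate 1 or any double-knockout array, while their summed intensity overlapped between the groups (1536 to 2241 in Mig-6 d/d against 1357 to 1924 in the double knockout). The gland regulator Foxa2 had a change of -0.46 that was not called (adjusted p = 0.217, limma), and Sox9, a transcription factor gene of glands and their progenitors, read 24.03, 23.04 and 41.01 in Mig-6 d/d against 15.2, 12.6 and 12.4 in the double knockout and fell by 1.09 (adjusted p = 0.0170, limma), a call lost without double-knockout replicate 2 or 3 (adjusted p up to 0.0629, limma). Its change with 1 array left out was -1.24 to -0.82.

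**Figure D5:**
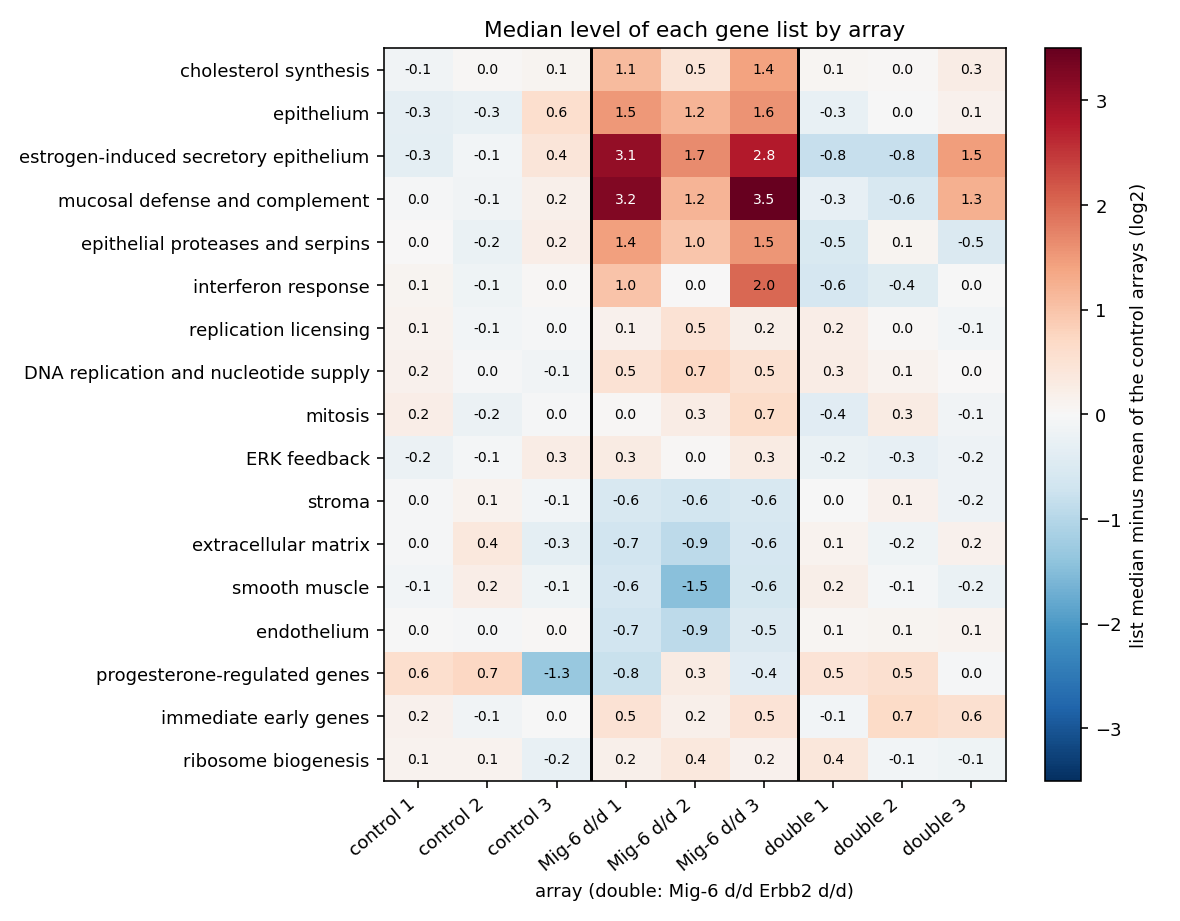
Median log2 level of the members of each of 17 gene lists in each array, minus the mean of the 3 control arrays. The Mig-6 d/d arrays lay above this mean in the lists of cholesterol synthesis, epithelium, its secretions, defense and proteases, and below it in stroma, matrix, muscle and endothelium. Double-knockout replicate 3 lay above it by 1.46 (secretory epithelium) and 1.25 (mucosal defense), where the other double-knockout arrays lay below.

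Most enzymes of cholesterol synthesis decreased. Of 20 measured genes of this pathway, which builds sterols from acetyl units, 19 were lower and 14 were decreased, none was increased, and the median was -1.04. Msmo1, a sterol oxidase gene, read 193, 91.8 and 248 in Mig-6 d/d against 45.00, 31.4 and 53.8 in the double knockout, and fell by 1.95 (SE 0.33, adjusted p = 0.00907, limma). Idi1, which encodes the isomerase of isopentenyl units, read 231, 127 and 322 in Mig-6 d/d against 66.8, 54.4 and 82.5 in the double knockout and fell by 1.66 (SE 0.29, adjusted p = 0.0110, limma). In both genes the library with the label Mig-6 d/d 3 was the highest array and Mig-6 d/d replicate 2 the lowest of its group, and both were called whichever array was left out. Without that library the changes were -1.65 and -1.36, and the list had 7 decreased members at a median of -0.86. The count was 5 or 6 without double-knockout replicate 1 or 2 or Mig-6 d/d replicate 1. Hmgcs1, the synthase gene that opens the pathway, read 617, 378 and 652 in Mig-6 d/d against 226, 251 and 306 in the double knockout and fell by 1.04 (adjusted p = 0.0398, limma), a call lost without double-knockout replicate 1, 2 or 3, Mig-6 d/d replicate 1 or the library with the label Mig-6 d/d 3. The promoter of Hmgcs1 was the 1 of 19 promoters of this list, 250 bases before to 50 after a start site in RefSeq (GRCm38.p6), that held the letters of a sterol element, TCACNCCAC on either strand, which 1.24% of all 32851 promoters held. The stretch around it is shown to place the element, in capitals, 137 bases before the start site (chr13:119690179-119690257, + strand).
Hmgcs1: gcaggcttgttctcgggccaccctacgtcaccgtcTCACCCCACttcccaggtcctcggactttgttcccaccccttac

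Other metabolic genes moved less uniformly. Beside the counts of these lists, 3.73% of all genes were increased and 3.75% decreased. The 1 increased gene in fatty acid synthesis (7.14%) and the 1 in glycolysis and the hypoxia response (4.76%) were near that share. Of 14 genes of fatty acid synthesis, 1 was increased and 2 were decreased (Scd2 and Me1), and none of the latter was called without Mig-6 d/d replicate 1, the library with the label Mig-6 d/d 3 or any double-knockout array. Fads1, a desaturase gene, read 81.1, 89.97 and 90.6 in Mig-6 d/d against 154, 134 and 130.5 in the double knockout and increased by 0.68 (adjusted p = 0.00836, limma), called whichever array was left out. Of 21 genes of glycolysis and the hypoxia response, Hk2 and the oxygen sensor gene Egln3 were decreased (4 genes without Mig-6 d/d replicate 2). Pkm, which encodes the last enzyme of glycolysis, read 203, 169.8 and 217 in Mig-6 d/d against 354, 326 and 295 in the double knockout and increased by 0.73 (adjusted p = 0.0280, limma), a call lost without double-knockout replicate 1 or 2, Mig-6 d/d replicate 1 or 2 or the library with the label Mig-6 d/d 3 (adjusted p up to 0.104, limma), and its change stayed at 0.63 to 0.80 with 1 array left out. Genes of the secretory pathway in the endoplasmic reticulum were lower in 20 of 22 cases with 3 decreased, and 0 or 1 when any of the 6 arrays but Mig-6 d/d replicate 2 was left out. The largest change of a called member was that of Sec11c, a signal peptidase subunit gene, at -1.06 (adjusted p = 0.0128, limma; not called without double-knockout replicate 1).

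The median change was -0.55 for replication licensing genes, -0.45 for genes of DNA replication and -0.39 for genes of mitosis. At an unadjusted p under 0.05, 13 of 23, 19 of 30 and 10 of 22 were lower. Of all 45037 probe sets, 9090 passed that limit in either direction, which is not a like count of genes in 1 direction. Of 23 replication licensing genes 21 were lower and 6 were decreased, and of 30 genes of DNA replication and nucleotide supply 29 were lower and 9 were decreased, none being increased in either list. Cdc6, the loader of the MCM helicase, read 50.04, 49.7 and 58.95 in Mig-6 d/d, 15.3, 17.1 and 17.04 for the double knockout and 23.9, 12.03 and 10.6 in control. Cdc6 fell by 1.68 (SE 0.25, adjusted p = 0.00549, limma). Mcm6, a helicase subunit gene, read 232, 232 and 237 in Mig-6 d/d against 148, 138 and 115 in the double knockout and fell by 0.81 (SE 0.13, adjusted p = 0.00824, limma). Hells, a chromatin remodeler gene of replicating cells, read 184, 191 and 193 in Mig-6 d/d against 53.3, 77.01 and 61.8 in the double knockout and fell by 1.58 (SE 0.22, adjusted p = 0.00476, limma). Chaf1b, a chromatin assembly factor gene, read 38.5, 38.04 and 36.3 in Mig-6 d/d against 17.6, 18.4 and 16.3 in the double knockout and fell by 1.11 (SE 0.11, adjusted p = 0.00111, limma). The licensing inhibitor Gmnn, Mcm10 and the clamp loader subunit Rfc3 fell by 1.10, 1.11 and 1.04 (adjusted p = 0.00545, 0.00919 and 0.00406, limma). In Cdc6, Mcm6, Hells and Chaf1b the groups did not overlap and the 3 Mig-6 d/d arrays were close together, the library with the label Mig-6 d/d 3 included. All 7 genes were called whichever array was left out. The DNA replication count of 9 was 3 to 5 without double-knockout replicate 1 or 3, Mig-6 d/d replicate 1 or 2 or the library with the label Mig-6 d/d 3. Mcm2, Mcm3 and Mcm5 were not called at their brightest probe sets (changes of -0.60, -0.69 and -0.81, adjusted p = 0.0595, 0.102 and 0.0961, limma). Of 22 mitosis genes 21 were lower and 1 was decreased (4.55%, near the 3.75% of all genes). That was the spindle checkpoint gene Mad2l1 (change -0.89, adjusted p = 0.0466, limma), not called without 7 of the 9 arrays. Mki67, the gene of the proliferation marker Ki67, was the 1 that was not lower, at 0.02. Summed intensity of the mitosis list overlapped between the groups (2311 to 3128 in Mig-6 d/d against 1884 to 2536 in the double knockout). The count for mitosis was 2 or 3 without control replicate 1 or 2 and 0 without control replicate 3, Mig-6 d/d replicate 2, the library with the label Mig-6 d/d 3 or double-knockout replicate 1 or 2.

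The letters that E2F factors bind, TTTNNCGC on either strand, were in 9 of 23 promoters of the licensing list (39.1%) and in 11 of 34 of the DNA replication list (32.4%), beside 5.17% of all 32851 promoters. The letters of the element of genes active in mitosis, TTTGAA, were in 13 of 19 promoters of the mitosis list (68.4%), beside 17.9% of all. The CArG box that serum response factor binds in muscle genes was in 3 of 18 promoters of the smooth muscle list (16.7%), beside 1.63% of all. Of the genes called in these lists, the letters were in the promoters of 2 of 3 with a promoter in the licensing list, 3 of 9 in DNA replication, 0 of 1 in mitosis and 1 of 9 in smooth muscle. These are matches of letters in a window and not sites of binding. The stretches around the matches in 3 genes that decreased are shown with the E2F letters in capitals, read 5′ to 3′ on the strand of the gene (GRCm38.p6): Mcm6 at chr1:128359710-128359850 (- strand), with a pair of overlapping matches and a further one, Cdc6 at chr11:98907978-98908055 (+ strand) and Hells at chr19:38930893-38930970 (+ strand).
Mcm6: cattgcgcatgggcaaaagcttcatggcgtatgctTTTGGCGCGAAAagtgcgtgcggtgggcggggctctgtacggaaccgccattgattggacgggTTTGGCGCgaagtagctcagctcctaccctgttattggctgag
Cdc6: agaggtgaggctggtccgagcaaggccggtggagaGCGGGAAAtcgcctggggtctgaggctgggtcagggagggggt
Hells: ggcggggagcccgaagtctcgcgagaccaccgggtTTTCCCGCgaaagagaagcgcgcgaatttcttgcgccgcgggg

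Regulators of growth outside the replication machinery decreased in 5 of 22 cases and increased in none, a count that was 0 or 1 without double-knockout replicate 1 or 2, Mig-6 d/d replicate 1 or the library with the label Mig-6 d/d 3, and 3 without double-knockout replicate 3. Ccnd1, the cyclin D1 gene, read 489, 387 and 499.6 in Mig-6 d/d against 357, 284 and 246 in the double knockout and fell by 0.64 (adjusted p = 0.0306, limma). Klf4, a zinc finger transcription factor gene, read 740.5, 461 and 764 in Mig-6 d/d against 237, 217 and 433 in the double knockout and fell by 1.18 (adjusted p = 0.0475, limma). Mycn fell by 2.58 and Myb by 2.79 (adjusted p = 0.0240 and 0.0440, limma), with double-knockout replicate 3 the highest of its group in Klf4, Mycn and Myb. Each of these 4 lost the call without at least 4 single arrays (adjusted p up to 0.109, 0.159, 0.0921 and 0.152, limma).

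Of 20 genes of the P4 response 18 were higher and 2 were increased (10%, beside 3.73% of all genes). Their median was 0.53, and the count of increased members was 1 to 3 with any 1 array left out. The control arrays of this list were uneven, with control replicate 3 below the others, as the heat map of list levels by array shows. Nr2f2, the stromal transcription factor COUP-TFII that relays hedgehog signals from the epithelium, read 363, 319 and 361 in Mig-6 d/d, 658, 564 and 545 for the double knockout and 545, 687 and 554 in control. Nr2f2 increased by 0.76 (SE 0.12, adjusted p = 0.00796, limma) and was called whichever array was left out, but at 1 of its 6 probe sets. Gli1, a target of hedgehog signaling in the stroma, read 59.9, 86.7 and 66.8 in Mig-6 d/d against 158, 176 and 112 in the double knockout and increased by 1.05 (SE 0.20, adjusted p = 0.0148, limma), a call lost without double-knockout replicate 1 or 2, Mig-6 d/d replicate 1 or the library with the label Mig-6 d/d 3 (adjusted p up to 0.0607, limma). Nr2f2 is also in the list of stromal markers, which were all higher. The receptor genes were not called. Pgr read 873, 798 and 588 in Mig-6 d/d against 729, 791 and 986 in the double knockout, with overlap (change 0.16, adjusted p = 0.748, limma), and the estrogen receptor gene Esr1 read 2051, 1489.7 and 1664 in Mig-6 d/d against 1425, 1327 and 1486 in the double knockout (change -0.29, adjusted p = 0.283, limma). Of 11 genes of steroid receptors and coregulators none was called by limma, and 1 was higher and 1 lower at an unadjusted p under 0.05. That limit was passed by 9090 of all 45037 probe sets in either direction, which is not a like count of genes.

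In other signaling pathways single genes changed in both directions. Beside the counts of these lists, 3.73% of all genes were increased and 3.75% decreased. The BMP list had 1 increased and 2 decreased of 19 genes. In the IGF axis 1 of 11 genes was increased, and of prostaglandin synthesis and receptors 1 of 14. The single call in the Notch list (7.14% decreased) was near those shares. In the WNT pathway 4 of 25 genes were decreased, and 2 without double-knockout replicate 1 or 3 or Mig-6 d/d replicate 1. The 2 increased genes, Lef1 and Fzd2, lost the call without 5 and 7 of the 9 arrays. Sfrp1, a secreted WNT antagonist, read 37.1, 26.6 and 38.5 in Mig-6 d/d, 11.6, 11.8 and 11.5 for the double knockout and 47.9, 55.1 and 29.4 in control, so the double-knockout arrays were the lowest 3 of the 9. Sfrp1 fell by 1.53 (SE 0.22, adjusted p = 0.00489, limma), and its change against control was -1.87 (adjusted p = 0.00530, limma). Of its 5 probe sets 1 was decreased. The epithelial ligand gene Wnt7b fell by 0.78 (adjusted p = 0.00919, limma). Hes1, a transcriptional repressor induced by Notch, read 115, 109.8 and 100.2 in Mig-6 d/d against 51.1, 47.7 and 49.3 in the double knockout and fell by 1.13 (SE 0.14, adjusted p = 0.00300, limma), as the 1 gene of 14 of the Notch pathway that was called. Bmp5, a ligand gene of the BMP family, read 15.2, 15.6 and 13.3 in Mig-6 d/d against 9.59, 5.52 and 7.54 in the double knockout and fell by 0.99 to the arrays' median (adjusted p = 0.0121, limma). Of 18 homeobox genes of the Hox, Msx and Dlx families 3 were decreased and 2 increased, and 1 was decreased without Mig-6 d/d replicate 1, the library with the label Mig-6 d/d 3 or double-knockout replicate 1 or 2. None was increased without double-knockout replicate 2, and 1 without any other of the 6 compared arrays or control replicate 1. Dlx6 read 91.4, 65.9 and 66.3 in Mig-6 d/d against 24.97, 13.2 and 18.5 in the double knockout and fell by 2.01 (SE 0.30, adjusted p = 0.00542, limma). Among 11 genes of the IGF axis, Igfbp6, which binds insulin-like growth factors, read 451, 444 and 362 in Mig-6 d/d against 991, 796 and 846 in the double knockout and increased by 1.07 (SE 0.16, adjusted p = 0.00524, limma). Ptgis, the prostacyclin synthase gene, read 142, 95.97 and 136 in Mig-6 d/d against 372, 226 and 255 in the double knockout and increased by 1.18 (SE 0.20, adjusted p = 0.00889, limma). Sfrp1, Wnt7b, Hes1, Bmp5, Dlx6, Igfbp6 and Ptgis were called whichever array was left out.

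Of 17 interferon-induced genes 7 were decreased and none increased, at a median of -1.21. Their summed intensity overlapped between the groups (1304 to 3836 in Mig-6 d/d against 1154 to 1422 in the double knockout). It was 1274 to 1398 in control, and Mig-6 d/d replicate 2 was the lowest of its group at 1304. Oas2, which makes an antiviral messenger nucleotide, read 130.1, 50.98 and 269.8 in Mig-6 d/d against 18.97, 21.9 and 48.00 in the double knockout, and fell by 2.16 (SE 0.52, adjusted p = 0.0367, limma). The library with the label Mig-6 d/d 3 was the highest array in Oas2, Ifit1 and Mx1, and Mig-6 d/d replicate 2 the lowest of its group. Without that library 2 members were decreased and the median was -0.76, without double-knockout replicate 1 or Mig-6 d/d replicate 1 none was, without double-knockout replicate 2 or 3 the count was 2 or 3, and without Mig-6 d/d replicate 2 it was 12. Cd14, a coreceptor for bacterial products, read 285, 368 and 384 in Mig-6 d/d against 184, 190.5 and 191 in the double knockout and fell by 0.86 (SE 0.12, adjusted p = 0.00449, limma), called whichever array was left out, as the 1 decreased gene of 15 on the macrophage list. The macrophage markers Adgre1 and Csf1r had changes of 0.65 and 0.50 that were not called (adjusted p = 0.0683 and 0.0592, limma). Of 17 genes of natural killer cells and granzymes 14 were higher, and Gzmb was the 1 called (2 genes without control replicate 3 and 3 without double-knockout replicate 2). These single calls, 5.88% of this list increased and 6.67% of macrophage genes decreased, were near the 3.73% and 3.75% of all genes. The summed intensity of the natural killer list was 173 to 195 in Mig-6 d/d against 263 to 349.9 in the double knockout, and Gzme, Gzmf, Gzmg, Klrk1 and Tbx21 were at or below the median of all values in all 6 arrays.

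Besides the immediate early genes and the steroid receptors, lists without a call by limma in either direction were those of ribosome biogenesis, LIF signaling, MHC class II, neutrophils, mast cells, adipocytes, erythroid cells, mesothelium and nerve. At an unadjusted p under 0.05, 6 members of these 9 lists were higher, and 9 were lower, of which 6 were of ribosome biogenesis. Of all 45037 probe sets, 9090 were under that p in either direction, a count of probe sets and not of genes. With any 1 array left out, each of these lists had at most 1 called member, apart from the adipocytes. Of 21 genes of ribosome biogenesis 18 were lower, at a median of -0.18, and Nop58 came nearest to a call (change -0.66, adjusted p = 0.0613, limma). The adipocyte gene Fabp4, which encodes a fatty acid carrier, read 6.95, 4.99 and 55.97 in Mig-6 d/d, with the library with the label Mig-6 d/d 3 apart, and 32.4, 71.5 and 40.9 in the double knockout. The adipocyte hormone gene Adipoq read 5.19, 4.43 and 25.6 and 21.3, 33.6 and 16.9. They had changes of 1.87 and 1.45 with that library and were called increased at 2.95 and 2.26 without it. The defining markers of neutrophils (S100a8, S100a9 and Cxcr2) and of red cells (Slc4a1 and Hemgn) were at or below the median of all values in all 6 arrays. The ovary and oviduct list had a summed intensity of 62 to 117 in Mig-6 d/d against 106 to 126 in the double knockout, with 1 of 8 genes, Inha, increased from levels below the arrays' median, a call lost without each of the 6 arrays.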

How the data were processed

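Total RNA of whole uteri at GD 3.5 was hybridised to 9 Affymetrix whole-genome mouse expression arrays. The authors deposited intensities on a linear scale, made by robust multiarray averaging (RMA) with quantile normalization in Bioconductor, of a version not given in the sources used here. Scanner files were not used here. Log2 was taken of the deposited intensities of 45037 probe sets (2.11 to 11548.76). Symbols came from the platform annotation, 34945 probe sets having 1 symbol, 932 several and 9160 none, and 34741 of the first were found in RefSeq (GRCm38.p6). Genes were read at the probe set with 1 symbol and the highest mean over the 9 arrays. The 3 groups were fitted in 1 linear model with limma 3.58.1 (R 4.3.3, lmFit and eBayes), p-values were adjusted over all probe sets (Benjamini-Hochberg), and calls needed an adjusted p under 0.05 and more than a 1.5-fold change. The fit was tested on simulated data. The 46 gene lists (698 of 746 genes measured) and the genes named were chosen with earlier results of these data known. Named were the ERBB genes, the 12 largest changes in each direction whose arrays did not overlap, up to 4 called members of each list in each direction, the first markers of each cell type and genes the study discusses; neighbours of changed genes, Hmgcs1 and dim markers were named after their values were seen. Promoters and the order of genes came from RefSeq (GRCm38.p6). Alternatives covered normalization, dim probe sets, variance, array weights, single arrays left out, the replicate number as a block and an unpaired t-test.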

Additional observations from a re-analysis of the deposited data

How the results depend on the processing

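A total of 24 other settings were tried, 1 of them chosen after seeing the data. The counts of 1074 increased and 1238 decreased probe sets stayed within 1.5 times when dim probe sets were left out, when the values were quantile normalized again or centred on each array's median, with a trended and robust variance, with the 6 compared arrays only, with array weights, without a fold limit and when probe sets with shared sequence were left out. Centring gave 917 increased and 1328 decreased probe sets. The unpaired t-test that the methods name for 2 groups was run on the same log2 values with equal variance. For the arrays the methods name no test. This t-test called 1380 increased and 1554 decreased probe sets without adjustment, and 13 and 22 after the Benjamini-Hochberg adjustment. A limit of more than 2-fold left 227 increased and 622 decreased probe sets. Reading 1 probe set per gene, with adjustment over 18193 genes, gave 773 increased and 799 decreased genes, and the mean over the probe sets of a gene gave 534 and 650. These settings test fewer features or set a stricter limit by construction. Leaving out 1 array gave 502 to 1216 increased and 611 to 1370 decreased probe sets. The lowest increased count was without double-knockout replicate 1 (502) and the lowest decreased count without double-knockout replicate 2 (611). Leaving out Mig-6 d/d replicate 1 also lowered the counts by more than 1.5 times (658 increased and 676 decreased), as did leaving out double-knockout replicate 2 for increases (651) and replicate 1 for decreases (631) and, for decreases, the library with the label Mig-6 d/d 3 (728). Without both libraries numbered 3 of the compared groups, the setting chosen after seeing the data, 421 probe sets were increased and 470 decreased. The cause of these differences was not tested beyond the loss of arrays.

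With the replicate number as a block, 1146 probe sets were increased and 1359 decreased. Libraries of the same number in both groups deviated from their group means with correlations of 0.02, 0.19 and 0.11 over all probe sets, not all above 0.1, and double-knockout replicates 1, 2 and 3 correlated best with Mig-6 d/d replicates 2, 2 and 1, so the numbers were not taken to pair the arrays. Among the genes named in the text by the rule, the direction of the change turned in Errfi1 and Pgr. Errfi1 changed by 0.19 with all arrays, -0.19 with array weights, -0.50 without Mig-6 d/d replicate 1, -0.46 without Mig-6 d/d replicate 2, -0.19 when double-knockout replicate 1 was left out, and 1.54 without the library with the label Mig-6 d/d 3 (adjusted p = 0.0621, limma). Pgr changed by 0.16 with all arrays, by -0.010 without the library with the label Mig-6 d/d 3, by 0.27 without Mig-6 d/d replicate 1 and by -0.14 when both libraries numbered 3 were left out. The arrays carry no measure of background here, and 3 arrays a group limit the precision.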
